A study of Homo sapiens with 6 samples.

Results

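The MAGE and PRAME cancer-testis antigens were examined in RNA-seq libraries of M14, an established human melanoma line, to see whether their transcripts changed upon STAG2 knockdown. The 9 members, MAGEA1, MAGEA3, MAGEA4, MAGEA6, MAGEA10, MAGEA12, MAGEC1, MAGEC2 and PRAME, were chosen by gene symbol from the 57820 genes of the count table, and each symbol matched 1 row. All 6 libraries came from M14 cells with a doxycycline-inducible shRNA against STAG2, grown under puromycin. The 3 WT libraries were from cells without doxycycline and the 3 KD libraries from cells given doxycycline for 5 days. Every library therefore carried the shRNA construct, and an effect of doxycycline itself cannot be told apart from that of the knockdown. A single line and a single shRNA were used. The labels do not describe the replicates, which the study's figure legends call biologically independent samples.

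Cancer-testis antigens are proteins that are normally made in male germ cells, are kept silent in most other tissues by promoter DNA methylation, and reappear in melanoma and other tumors. Their peptides are presented on MHC class I molecules, which made MAGEA3 and PRAME targets of T cell therapy and vaccination. The MAGE-A and MAGE-C genes belong to the type I MAGE family on the X chromosome, whose proteins share a MAGE homology domain and bind RING-type ubiquitin ligases such as TRIM28. PRAME is an unrelated leucine-rich repeat protein that acts as a substrate receptor of a CUL2 ubiquitin ligase and represses retinoic acid receptor signaling.

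The sequences below show how alike the closest MAGE-A genes are, which makes their separate counts uncertain. The coding sequences of MAGEA3 and MAGEA6 are both 942 bases long and differ at 18 positions (98.1% identical), while MAGEA12 and MAGEA2 differ from MAGEA3 at 74 and 80 positions. The first 308 coding bases of MAGEA3 and MAGEA6 are identical, and 42.7% of all stretches of 50 bases, the length of a read here, hold no difference. The stretch of 60 bases with the most differences between the pair, coding bases 573 to 632, is printed for the 4 genes. Capitals mark the bases in which MAGEA3 and MAGEA6 differ and, for MAGEA12 and MAGEA2, those that differ from MAGEA3.
MAGEA3: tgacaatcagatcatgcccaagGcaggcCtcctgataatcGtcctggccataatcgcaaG
MAGEA6: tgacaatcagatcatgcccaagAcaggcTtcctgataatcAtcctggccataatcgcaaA
MAGEA12: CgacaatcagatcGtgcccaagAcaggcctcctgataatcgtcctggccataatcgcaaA
MAGEA2: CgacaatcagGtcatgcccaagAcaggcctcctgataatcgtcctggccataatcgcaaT
On GRCh37 this stretch lies on the minus strand at chrX:151935535-151935594 in MAGEA3, on the plus strand at chrX:151869883-151869942 in MAGEA6, on the minus strand at chrX:151900169-151900228 in MAGEA12 and on the minus strand at chrX:151919256-151919315 in MAGEA2. In MAGEA3, MAGEA6 and MAGEA12 the whole coding sequence lies in a single exon. MAGEA3 spans 151934652 to 151938240 (minus strand) and MAGEA6 spans 151867214 to 151870825 (plus strand) of chromosome X, close to each other, while MAGEA10 (151301782 to 151307050) and MAGEA1 (152481520 to 152486116) lie farther out on the minus strand.

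Over all annotated transcripts, 61.6% of the 50-base stretches of MAGEA6 and 51.9% of those of MAGEA3 occur in another gene, nearly all of them in each other. The share was 15.7% for MAGEA10, 11.2% for MAGEA12, 2.31% for MAGEA4, 0.662% for MAGEA1, 0.384% for MAGEC1, 0.051% for MAGEC2 and 0 for PRAME. RSEM divides reads that match several genes, which leaves counts that are not whole numbers. Counts of MAGEA4, MAGEC1, MAGEC2 and PRAME were whole within 0.005 in all 6 libraries, and those of MAGEA3, MAGEA6 and MAGEA12 were whole in none. The values of MAGEA3 and MAGEA6 are thus partly the outcome of RSEM's division. MAGEA3 received 47.3% to 54.3% of the summed counts of the pair in the 6 libraries.

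**Figure D1:**
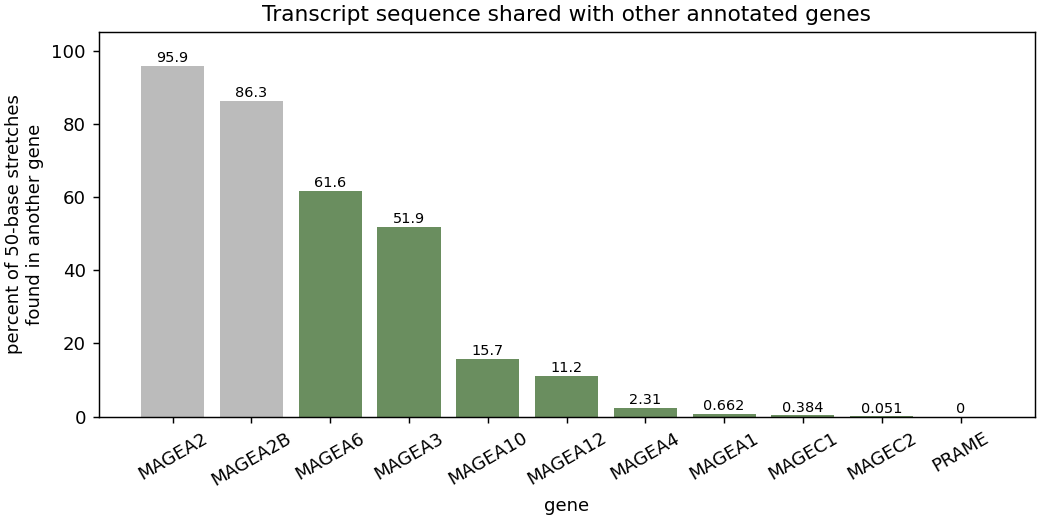
Bars give, for each gene on the x axis, the percentage of distinct 50-base stretches of its annotated transcripts that also occur in a transcript of another gene (members in green, MAGEA2 and MAGEA2B in grey). MAGEA6 and MAGEA3 stand at 61.6% and 51.9%, whereas MAGEA4, MAGEA1, MAGEC1, MAGEC2 and PRAME are at 2.31% or below.

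Library totals ran from 24895998 to 35181733 expected counts, so that 3 counts, used as a floor for counting error, came to between 0.0869 and 0.112 CPM (read counts scaled to the library size by the TMM method). WT replicate 1 stood apart, with 5.07% of its counts from mitochondrial genes against 2.12% to 2.94% elsewhere and with 20646 genes above 0 against 16028 to 17995. STAG2, the targeted gene, was at 43.3 ± 20.2 CPM in WT against 9.98 ± 5.17 CPM in KD (SD, n = 3 each), and all KD libraries were below all WT libraries. The log2 fold change was −2.12 ± 0.43 (SE), with a Benjamini-Hochberg adjusted p of 0.0342 by the quasi-likelihood test of edgeR. This call was lost on leaving out WT replicate 2 (0.0757), WT replicate 3 (0.0652), KD replicate 2 (0.168) or KD replicate 3 (0.152). Melanocyte lineage markers summed to between 1860 and 6302 CPM in WT and between 1194 and 2603 CPM in KD, with all 8 markers detected. The highest sum in each condition was that of replicate 1. PMEL was at 3366 CPM in WT replicate 1 against 661 and 683 CPM in WT replicates 2 and 3. In KD it was at 1253 CPM in replicate 1 against 357 and 364 CPM. SOX10 went the other way, lowest in replicate 1 of both conditions. Of the 8 markers, S100B fell by 1.35 on the log2 scale (adjusted p = 0.00949, edgeR) and 7 did not pass the test. With the replicate block 6 fell, where the block called 4.42% of all tested genes lower. TYR alone had a log2 fold change above 0 (0.35, and 0.51 with the block). Germ cell markers summed to at most 0.278 CPM in WT and 0.101 CPM in KD, with DDX4, TNP1, PRM1 and PRM2 at 0 in every library. Leukocyte markers summed to between 1.84 and 2.69 CPM in WT and between 2.17 and 4.59 CPM in KD. Fibroblast markers summed to between 4.77 and 93.5 CPM in WT and between 3.48 and 23.4 CPM in KD, and keratinocyte markers to between 32.9 and 57.9 CPM and between 27.4 and 43.9 CPM. Neither list had a gene past the test, and with the replicate block 1 fibroblast marker fell. The part of these shifts in the results below was not tested, and in bulk RNA fewer cells with a transcript and less of it per cell cannot be told apart.

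The 9 members fell into an abundant and a scarce group. Per kilobase of the longest coding transcript, mean levels in WT were 93.3 ± 14.3 CPM for MAGEA6, 80.4 ± 21.9 CPM for MAGEA3, 72.2 ± 22.3 CPM for MAGEA12 and 23.8 ± 3.21 CPM for PRAME (SD, n = 3). The ranges of MAGEA6, MAGEA3 and MAGEA12 overlapped, while PRAME was below them in every WT library. The other 5 members were between 0.135 ± 0.124 CPM per kilobase (MAGEA10) and 1.14 ± 0.328 CPM per kilobase (MAGEA1) in WT. Of these, MAGEA1, MAGEC2 and MAGEC1 overlapped each other, and MAGEA4 overlapped MAGEC2 and MAGEA10. In KD the same 4 genes led, with PRAME at 40.7 ± 3.69 CPM per kilobase and MAGEC1 next at 2.98 ± 0.97 CPM per kilobase.

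**Figure D2:**
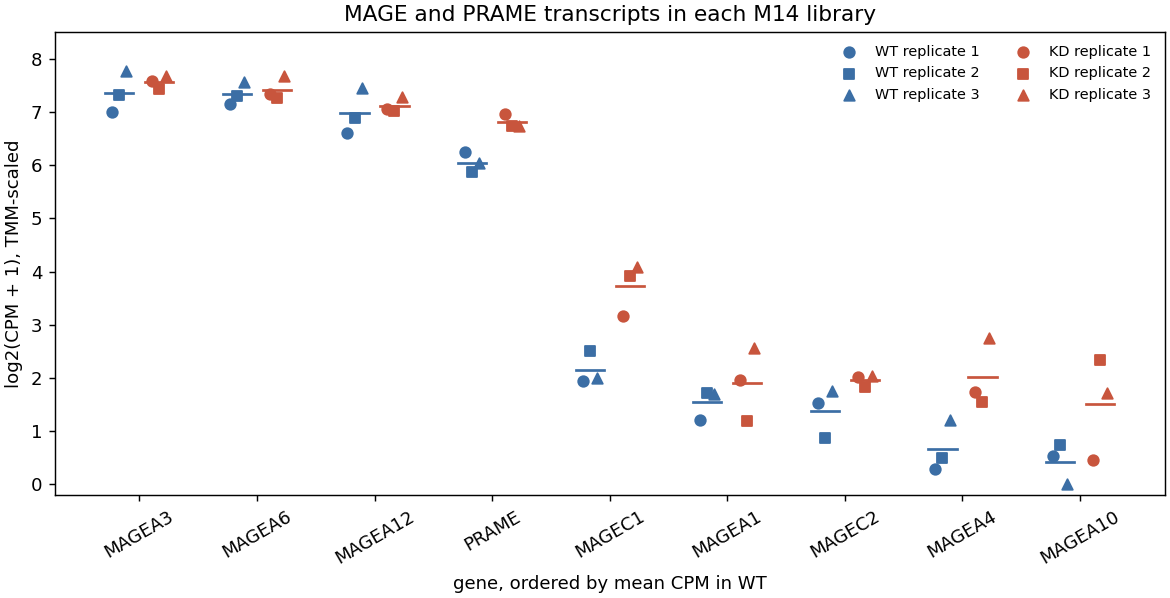
Points give log2(CPM + 1) of each member in each library (WT in blue, KD in red, the symbol marks the replicate) and lines give the mean of 3 libraries. PRAME, MAGEC1, MAGEC2 and MAGEA4 have every KD library above every WT library, while the points of MAGEA3, MAGEA6 and MAGEA12 interleave.

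MAGEC1 rose upon STAG2 knockdown, from 3.52 ± 0.998 to 12.7 ± 4.13 CPM, and was the single member of 9 that passed the test. PRAME was 1.71-fold higher in KD and did not pass, although it did when libraries were paired by replicate number. MAGEA3, MAGEA6 and MAGEA12, the most abundant members, differed by less than the spread between libraries. The share of members called, 1 of 9 (11.1%), stands beside 2.59% of all 15605 tested genes, and 1.75% called higher in KD. All 9 members passed the filter on low counts and had a log2 fold change above 0, as did 48.0% of the tested genes, although MAGEA6 and MAGEA12 were below 0 with some libraries left out. The median log2 fold change was 0.77 over the members and −0.03 over all tested genes. In 4 members (44.4%) the KD libraries lay above the WT libraries without overlap, as in 11.8% of the tested genes. With 3 libraries against 3, the two-sided exact permutation test cannot go below p = 0.1, which these 4 members reached. The members were chosen with earlier results of these data known, and some share reads, so their shares are a description only.

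MAGEC1, a MAGE protein with a long repetitive part before its MAGE homology domain, is on the plus strand of chromosome X of GRCh37 from 140991680 to 140997160, and 2 of the 4 exons of its longest transcript carry coding sequence. Its levels were 2.86, 4.67 and 3.02 CPM in WT replicates 1 to 3 and 8.02, 14.1 and 15.9 CPM in KD replicates 1 to 3. The lowest KD library was above the highest WT library, and these levels rest on 77 to 161 counts per WT library and 258 to 520 per KD library. With edgeR the log2 fold change came to 1.85 ± 0.40 (SE), with an adjusted p of 0.046, and 1.82 (SE 0.34, edgeR adjusted p = 0.00805) with the replicate block. The call without the block was close to the threshold. In edgeR it held with upper-quartile scaling (adjusted p = 0.0475) and with at least 10 counts in every library (0.0339). It also held in edgeR without a filter on low counts (0.0039) and without replicate 1 of both conditions (0.0212). DESeq2 kept the call as well (adjusted p = 0.00232). The call was lost with limma-voom (adjusted p = 0.077). In edgeR it was lost on leaving out WT replicate 1 (0.0718), WT replicate 2 (0.0942), WT replicate 3 (0.179), KD replicate 2 (0.195) or KD replicate 3 (0.246). It held without KD replicate 1 (0.0368). Of 17 alternative fits, those with the block included, MAGEC1 passed in 11. The log2 fold change stayed between 1.64 and 2.10 in these fits.

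MAGEC2, which binds and stimulates the ubiquitin ligase TRIM28, is on the minus strand of chromosome X from 141290128 to 141293076. Its levels were 1.90, 0.84 and 2.36 CPM in WT against 3.08, 2.54 and 3.12 CPM in KD. The groups did not overlap, but WT replicate 3 came close to KD replicate 2. This was a log2 fold change of 0.78 ± 0.65 (SE) in edgeR, at an adjusted p of 0.688, so MAGEC2 did not pass the test.

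PRAME lies on chromosome 22 (minus strand, GRCh37), from 22890123 to 22901768, away from the MAGE genes. Its levels were 75.0, 57.4 and 64.7 CPM in WT against 123.8, 106.4 and 106.0 CPM in KD, from 1780 to 2015 counts per WT library and 3147 to 3984 per KD library. All KD libraries were above all WT libraries, with replicate 1 the highest in both conditions. The means were 65.7 ± 8.85 CPM in WT against 112.1 ± 10.2 CPM in KD (SD, n = 3 each). By edgeR, KD exceeded WT by 0.77 ± 0.19 (SE) on the log2 scale, with an adjusted p of 0.072, just short of the threshold. With the replicate block it was 0.78 (SE 0.15, edgeR adjusted p = 0.00954), and 2 of 9 members were then higher in KD (22.2%), where the block called 5.10% of all tested genes higher. PRAME also passed with DESeq2 (adjusted p = 0.00896), without a filter on low counts (0.0308), without WT replicate 1 (0.0351) and without replicate 1 of both conditions (0.0343). It did not pass with limma-voom (adjusted p = 0.0614), or in edgeR with upper-quartile scaling (0.087) or at least 10 counts in every library (0.053). With 1 library left out, PRAME passed in 1 of 6 edgeR fits, and otherwise the adjusted p was 0.198 to 0.259. Its log2 fold change stayed between 0.68 and 0.87 over all settings. A long non-coding gene on the opposite strand overlaps the start of PRAME and had at most 18 counts in a library. All 12 PRAME paralogs looked up were at 0 in every library.

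**Figure D3:**
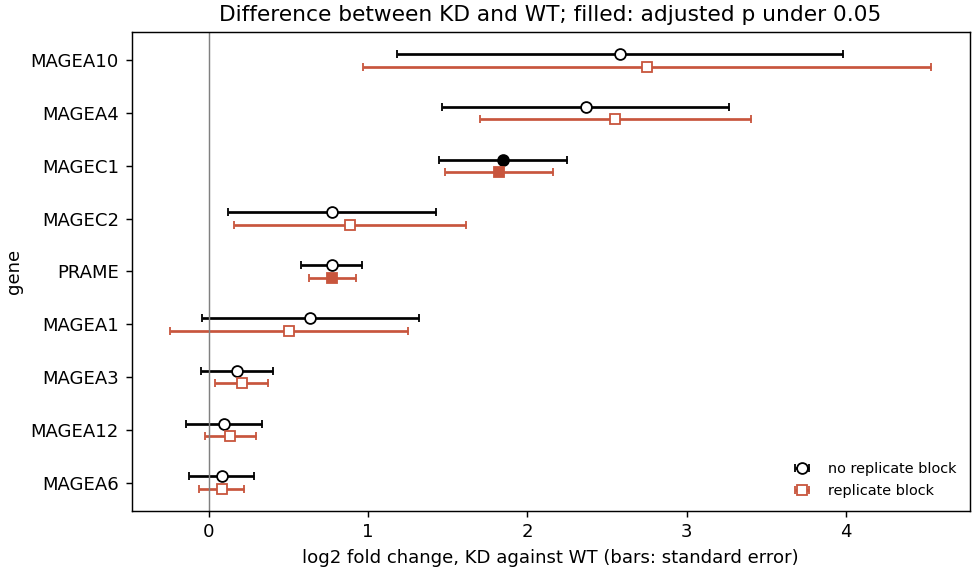
Points give the log2 fold change of each member, KD against WT, with bars of 1 standard error, from edgeR without (black circles) and with the replicate block (red squares), and filled points have an adjusted p under 0.05. MAGEC1 is filled in both fits and PRAME in the blocked fit only, while MAGEA4 and MAGEA10 have the largest changes and the widest bars.

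Among the abundant MAGE-A members, MAGEA3 and MAGEA6 bind TRIM28 and direct it to the energy sensor AMPK. MAGEA3 was at 126.4, 159.5 and 216.5 CPM in WT against 190.9, 172.4 and 203.9 CPM in KD. WT replicate 3 was above all KD libraries and WT replicates 1 and 2 below them. With edgeR the log2 fold change came to 0.18 ± 0.23 (SE), with an adjusted p of 0.82. MAGEA6 was at 140.7, 156.9 and 189.5 CPM in WT against 160.6, 152.2 and 202.7 CPM in KD, and the conditions overlapped. This was a log2 fold change of 0.08 ± 0.20 (SE) in edgeR, at an adjusted p of 0.916, and it was −0.02 without WT replicate 1 and −0.07 without KD replicate 3. Since reads of the pair are hard to separate, their counts were also summed before the fit, which gave 267.1, 316.4 and 406.1 CPM in WT against 351.6, 324.6 and 406.6 CPM in KD. The sum had a log2 fold change of 0.13 (SE 0.22, edgeR adjusted p = 0.862). Neither the separate nor the summed counts showed a difference beyond the spread of the WT libraries.

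MAGEA12 is on the minus strand of chromosome X from 151899293 to 151903206, between MAGEA6 and MAGEA3. Its levels were 96.9, 117.3 and 173.9 CPM in WT against 131.8, 129.3 and 153.8 CPM in KD. As for MAGEA3, WT replicate 3 was the highest library and WT replicate 1 the lowest. By edgeR, KD exceeded WT by 0.10 ± 0.24 (SE) on the log2 scale, with an adjusted p of 0.915. Summed with MAGEA2 and MAGEA2B, whose transcripts share 6.98% and 5.05% of the 50-base stretches of MAGEA12, it was 0.24 (SE 0.22, edgeR adjusted p = 0.728).

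The scarce MAGE-A members were measured from few counts. MAGEA4, which binds the DNA repair ubiquitin ligase RAD18, is on the plus strand of chromosome X from 151080967 to 151093643 and was at 0.22, 0.41 and 1.31 CPM in WT against 2.33, 1.93 and 5.78 CPM in KD. The libraries did not overlap, with 6 to 36 counts in WT and 57 to 189 in KD. Replicate 3 was the highest in both conditions. With edgeR the log2 fold change came to 2.37 ± 0.90 (SE), with an adjusted p of 0.246, and to 2.55 (SE 0.85, edgeR adjusted p = 0.0943) with the replicate block, so neither fit passed. It was 1.70 without KD replicate 3 and 3.38 without WT replicate 3. MAGEA10 had 12, 23 and 0 counts in WT, after rounding, and 12, 121 and 75 in KD. KD replicate 1, at 0.374 CPM, lay within the WT range of 0 to 0.667 CPM, while KD replicates 2 and 3 were at 4.08 and 2.29 CPM. This was a log2 fold change of 2.58 ± 1.40 (SE) in edgeR, at an adjusted p of 0.453, and it ran from 1.83 without KD replicate 2 to 3.31 without WT replicate 2. MAGEA10 shares 13.9% of its 50-base stretches with a long non-coding gene that overlaps it on the same strand and had at most 2.05 counts in a library. MAGEA1, the first human tumor antigen shown to be recognized by T cells, was at 1.3, 2.29 and 2.26 CPM in WT against 2.89, 1.28 and 4.92 CPM in KD. KD replicate 2 was below all WT libraries, and the log2 fold change came to 0.64 ± 0.68 (SE), with an adjusted p of 0.771 in edgeR. Without KD replicate 3 it was 0.08.

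The other type I MAGE genes ranged from undetected to abundant. MAGEA2B and MAGEA11 lay between the scarce and the abundant members in mean CPM. Of the 18 listed, 9 had no count in any library and 4 were tested, and none of the 4 passed (median log2 fold change 0.42, against −0.03 over all tested genes). MAGEA2 was at 79.2 ± 5.21 CPM in WT against 106.7 ± 15.3 CPM in KD (SD, n = 3), without overlap (log2 fold change 0.43, adjusted p = 0.322 from edgeR). MAGEA2B was at 20.4 ± 11.3 and 24.97 ± 1.91 CPM and MAGEA11, which binds the androgen receptor, at 14.5 ± 6.83 and 19.3 ± 6.63 CPM. MAGEB6 was at 0.215 ± 0.188 and 1.52 ± 0.562 CPM without overlap (adjusted p = 0.419 from edgeR). The MAGEA2 and MAGEA2B counts are uncertain, since 95.9% of the 50-base stretches of MAGEA2 occur in another gene.

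Type II MAGE genes, which are expressed in many normal tissues, did not pass the test in any of 9 tested of 11 (median log2 fold change 0.02). MAGED2, which is required for salt transport in the developing kidney, was at 420.7 ± 50.05 CPM in WT against 317.5 ± 88.9 CPM in KD. MAGED1 was at 371.8 ± 132.8 and 350.3 ± 134.7 CPM, MAGEF1 at 39.9 ± 2.94 and 49.1 ± 4.10 CPM and NDN, a neuronal growth suppressor, at 36.1 ± 9.19 and 28.6 ± 1.75 CPM (SD, n = 3). With MAGEF1 the conditions did not overlap, and its log2 fold change of 0.30 had an adjusted p of 0.542 from edgeR.

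Cancer-testis antigens outside the MAGE and PRAME families were detected in 38 of 49 genes matched, and 23 were tested. None of the 23 passed, with 11 above 0 and 12 below and a median log2 fold change of −0.01. GAGE12J was at 63.9 ± 11.3 CPM in WT against 78.6 ± 33.7 CPM in KD, GAGE2D at 60.3 ± 12.9 and 68.8 ± 19.1 CPM and CSAG1 at 58.5 ± 19.99 and 58.2 ± 2.75 CPM (SD, n = 3). CSAG2 and CSAG3 had identical counts in every library, and each was at 19.5 ± 2.91 CPM in WT against 25.6 ± 3.74 CPM in KD. CTAG2, chosen after its values were seen, encodes the LAGE antigen and was at 9.29 ± 1.79 CPM in WT against 5.46 ± 0.402 CPM in KD without overlap (log2 fold change −0.77, adjusted p = 0.332 from edgeR). GAGE1 (6.48 ± 0.369 against 3.55 ± 0.845 CPM) and SPA17 (4.21 ± 0.268 against 2.98 ± 0.627 CPM), chosen likewise, were also lower in KD without overlap. Neither passed (adjusted p = 0.375 and 0.731 from edgeR). No tested gene of this list was higher in KD without overlap.

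**Figure D4:**
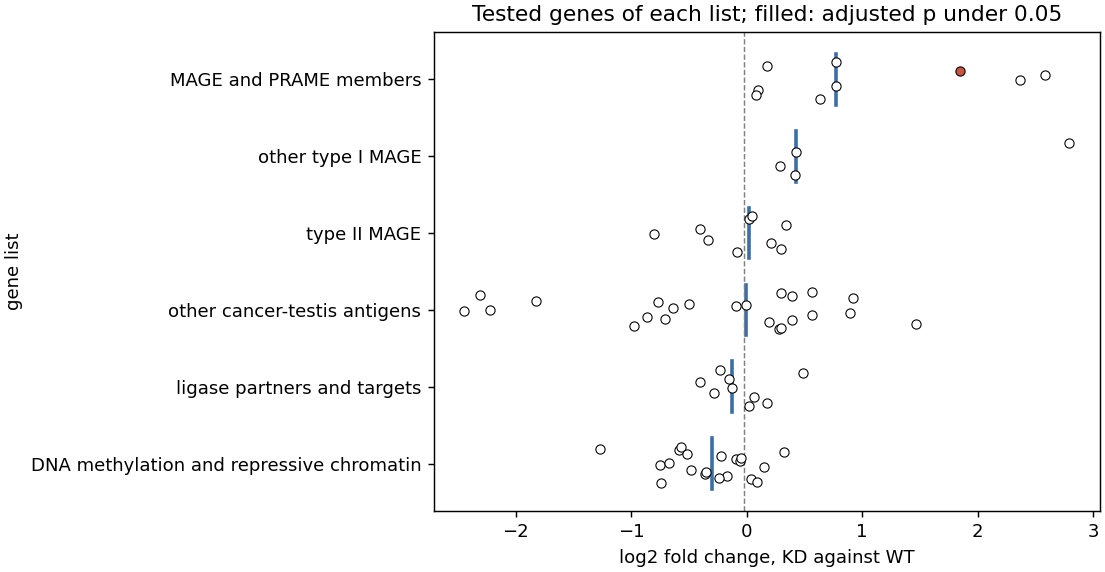
Points give the log2 fold change, KD against WT, of the tested genes of the 6 lists named on the y axis, with filled points past an adjusted p of 0.05, blue lines at the median of the list and a dashed line at the median of all tested genes. MAGEC1 is the only filled point among these lists, which leave out the cell type markers, and the members' median of 0.77 lies to the right of the medians of the lists drawn.

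None of 9 ubiquitin ligase partners and targets of these proteins passed the test. TRIM28 was at 818.8 ± 305.0 CPM in WT against 698.0 ± 174.8 CPM in KD, and TCEB2 (elongin B, of the CUL2 ligase) at 263.1 ± 44.1 and 236.1 ± 35.5 CPM (SD, n = 3). RARA, the retinoic acid receptor that PRAME binds, was at 63.6 ± 24.9 and 89.4 ± 8.94 CPM without overlap (log2 fold change 0.49, adjusted p = 0.512 from edgeR). Of 20 genes of DNA methylation and repressive chromatin, 0 passed without the replicate block, 16 had a log2 fold change below 0, as did 52.0% of all tested genes, and the median was −0.30. The deacetylase HDAC1 was at 299.9 ± 66.8 CPM in WT against 201.7 ± 61.1 CPM in KD, the maintenance methyltransferase DNMT1 at 236.4 ± 50.2 and 183.8 ± 45.2 CPM and the histone methyltransferase EHMT2 at 157.9 ± 36.8 and 135.6 ± 11.0 CPM (SD, n = 3). With the replicate block, HDAC1 fell by 0.60 (adjusted p = 0.0247 from edgeR) and the chromatin remodeler ATRX fell by 0.77 (adjusted p = 0.021 from edgeR) on the log2 scale, where the block called 4.42% of all tested genes lower, and the other 18 did not pass.

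The promoters of MAGEC1, PRAME and MAGEA3 are printed to show how they differ in sequence. MAGEC1 passed the test and PRAME passed with the replicate block. MAGEA3 had the highest mean CPM of the MAGE members, although MAGEA6 was higher per kilobase. RefSeq sequences on GRCh38.p14, the 250 bases before a transcription start, were at hand for 7 members with 14 starts. The upstream sequences of MAGEA3 and MAGEA6 are identical. Capitals mark matches on either strand to CCGGAA and CCGGAT, forms of the ETS factor site, and to GGATGTG, which was chosen after the promoters were seen and can overlap CCGGAT.
MAGEC1: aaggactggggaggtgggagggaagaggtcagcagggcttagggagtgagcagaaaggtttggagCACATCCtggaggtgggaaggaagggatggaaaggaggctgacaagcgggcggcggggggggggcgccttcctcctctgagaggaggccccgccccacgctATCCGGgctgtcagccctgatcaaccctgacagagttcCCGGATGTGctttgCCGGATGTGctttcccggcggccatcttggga
PRAME: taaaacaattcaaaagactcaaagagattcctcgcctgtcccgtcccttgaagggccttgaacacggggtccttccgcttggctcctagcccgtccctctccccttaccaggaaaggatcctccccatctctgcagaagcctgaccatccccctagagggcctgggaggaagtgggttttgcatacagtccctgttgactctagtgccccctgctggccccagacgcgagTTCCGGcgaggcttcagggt
MAGEA3: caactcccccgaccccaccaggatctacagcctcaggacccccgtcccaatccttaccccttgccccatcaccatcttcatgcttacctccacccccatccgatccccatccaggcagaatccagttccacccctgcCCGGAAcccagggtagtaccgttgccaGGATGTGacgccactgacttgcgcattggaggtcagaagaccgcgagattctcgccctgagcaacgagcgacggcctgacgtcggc
These lie on the plus strand at chrX:141903644-141903893 (MAGEC1), on the minus strand at chr22:22559266-22559515 (PRAME, the first of 3 annotated starts) and on the plus strand at chrX:152698544-152698793 (MAGEA3, whose segment is oriented differently in the 2 builds). GGATGTG occurred before 10 of the 14 starts (in MAGEC1, MAGEA4, MAGEA3, MAGEA6 and MAGEA12), where 3.52% of all 35116 promoters held it. The MAGEC2 window ends in CCGGATGT, so whether GGATGTG runs across its edge could not be read. CCGGAT occurred before 9 of the 14 (in MAGEC1, MAGEC2, MAGEA4 and MAGEA12), where 5.85% of all promoters held it. CCGGAA occurred before 3 of the 14 (1 start of PRAME and the identical sequences of MAGEA3 and MAGEA6), where 14.5% of all promoters held it. MAGEC1 held 3 matches each to CCGGAT and GGATGTG. CpG dinucleotides numbered 4 to 15 per start, where the median of all promoters was 11. Since some of these sequences are near copies of each other, the starts are not independent in this count.

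Over the 6 libraries, the expressed genes whose log2(CPM + 1) followed PRAME most closely were DEAF1 (Pearson r = 0.996), EIF2AK2 (0.995) and IFIH1 (0.995), out of 8926 genes with a mean of at least 10 CPM. For MAGEA3 they were DNTTIP1 (0.993), CCT7 (0.989) and EMP3 (0.981). The gene ranked 100 still had an r of 0.956 for PRAME and 0.922 for MAGEA3, and all genes share the same libraries, so these values are a description only. All 3 genes named for PRAME were themselves higher in KD by edgeR, with log2 fold changes of 0.95 for DEAF1 (adjusted p = 0.0482), 2.57 for EIF2AK2 (adjusted p = 0.00144) and 3.62 for IFIH1 (adjusted p = 0.00132), so these correlations hold the difference between the conditions. The 3 named for MAGEA3 did not pass, with log2 fold changes of 0.15 for DNTTIP1, 0.09 for CCT7 and 0.16 for EMP3.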

How the data were processed

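RNA-seq libraries were made from polyadenylated RNA of M14 cells, 3 WT and 3 KD, and sequenced as single reads of 50 bases. The authors mapped reads to hg19 with STAR and deposited expected counts per gene from RSEM, not scaled or filtered; the strand setting of the counting is not given in the sources used here. Expected counts were rounded, genes kept by filterByExpr (15605), scaled by the TMM method and tested with the quasi-likelihood test of edgeR 4.0.16 in R 4.3.3, p-values being adjusted by Benjamini-Hochberg across all these genes, with a threshold of 0.05. Standard errors of edgeR log2 fold changes were the absolute log2 fold change divided by the square root of the F statistic. Totals per library ran from 24895998 to 35181733 expected counts. Floors cover counting error only, as the sources name no molecular identifiers.

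Deviations from the group means (log2(CPM + 1), 13534 genes) correlated between same-numbered libraries at r = 0.472, 0.321 and 0.269 for replicates 1 to 3, and between other pairs from −0.363 to 0.167. Between replicates 2 and 3 the other pairs were at 0.134 and 0.167, so the separation there was weak. The labels name no pairing, and the main fit had no block. A replicate block was fitted as an alternative, and its pairing by replicate number rests on these correlations only. Other alternatives were DESeq2 1.42.0, limma-voom (limma 3.58.1), upper-quartile scaling, other filters, counts not rounded, close paralogs summed, other thresholds, and libraries left out.

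The members and gene lists were chosen with earlier results of these data known. Genes of the other lists were named if they passed, up to 6, and otherwise the 4 with the highest mean CPM. Some genes that this rule names are not reported here. Positions, transcript lengths and 50-base stretches (same strand) come from GENCODE v44lift37 on GRCh37, the coordinate system of hg19. The table's own annotation is not given in the sources used here, and its gene versions differ for most members. The test was also run on simulated data. The outcome is not reported here, and no result above rests on it.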

Additional observations from a re-analysis of the deposited data

How the results depend on the processing

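The count of genes past the threshold was 404 and that of members 1. They became 988 and 2 with DESeq2, 1103 and 2 without a filter on low counts, 1486 and 2 with the replicate block, 1487 and 2 with the block and close paralogs summed, and 137 and 0 at an adjusted p under 0.01. With limma-voom no member passed. With libraries left out and no block, the counts ran from 121 (without KD replicate 3) to 757 genes (without replicate 1 of both conditions) and from 0 to 2 members, and were 1441 and 2 without replicate 1 when the block was added. Leaving out replicate 1 of both conditions with the replicate block, and summing paralogs with the block, were chosen after seeing the data. The direction reversed, with no call in any fit, for MAGEA6 without WT replicate 1 (−0.02) and without KD replicate 3 (−0.0703; range with 1 library left out −0.0703 to 0.203), and for MAGEA12 without WT replicate 1 (−0.0786), without KD replicate 3 (−0.0020), without replicate 1 (−0.032), with that and the replicate block (−0.0110), and otherwise up to 0.364. The other 7 members kept their direction in every alternative that tested them. The replicate block changed the call of PRAME and of no other member. The cause of these shifts was not tested. Depth limits MAGEA4, MAGEA10, MAGEA1 and MAGEC2, with 0 to 189 counts per library.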
